A study of Mus musculus with 6 samples.

Results

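The growth factor receptors of blood cells were examined in sorted mouse acute myeloid leukemia cells, 24 h after the mice received the MDM2 inhibitor DS-5272 or vehicle. The 9 receptor genes were taken by symbol from a table of 26082 gene names: Flt3, Kit and Il3ra as receptors of progenitor cells, Csf2rb and Csf2rb2 as beta chains, and Csf1r, Csf2ra, Csf3r and Il6ra as receptors of more mature myeloid cells. Each symbol stood on 1 row of the table, and all 9 genes passed the filter of a mean of at least 1 FPKM (fragments per kilobase of transcript, scaled to the mapped fragments of the sample), so every member is reported.

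Both groups came from the same kind of leukemia. C57BL/6J bone marrow c-Kit+ progenitors carried a retrovirus for MLL-AF9, a fusion oncoprotein of human acute leukemia, and the resulting cells were passed serially through recipient mice. The vehicle group (3 samples) and the DS-5272 group (3 samples, 80 mg/kg by mouth) differed in the treatment, and leukemia cells were then sorted from the bone marrow. Progenitors that express Kit were the starting cells, and the sources used here do not say whether the 3 samples of a group came from 3 mice, so p-values measure the spread between these samples.

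Growth factor receptors let myeloid cells respond to the cytokines that govern their survival, division and maturation. Flt3 and Kit are receptor tyrosine kinases of stem and progenitor cells, and Csf1r is a tyrosine kinase of the same family that marks monocytes and macrophages. The receptors for GM-CSF and IL-3 pair a ligand-binding alpha chain (Csf2ra or Il3ra) with the common beta chain Csf2rb, and the mouse has a further beta chain, Csf2rb2, that serves IL-3 alone. Csf3r is the G-CSF receptor of the neutrophil line, and Il6ra binds IL-6 and signals through gp130, the product of Il6st.

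The cells carried myeloid markers in every sample. Itgam, which encodes CD11b, ran from 140 to 190 FPKM with vehicle and from 530 to 1087 FPKM with DS-5272. The other markers of this list did not all move that way. Ptprc rose, and Meis1 was at 66.1 to 80.5 FPKM with vehicle and 69.2 to 110 FPKM with DS-5272. Mpo fell from a mean of 228 FPKM with vehicle to 6.40 FPKM with DS-5272, and Elane from 1835 to 325 FPKM. T cell markers summed to at most 0.396 FPKM with vehicle and 3.47 FPKM with DS-5272. Most of the latter was Cd4, at 3.28 FPKM in the first DS-5272 sample beside 0.214 and 0.314 FPKM in the others. The remaining T cell markers stayed at or below 0.341 FPKM. B cell markers summed to 3.39 to 5.02 FPKM, most of it from Cd79b (group means 4.45 and 3.53 FPKM). NK cell markers summed to at most 2.88 FPKM in any sample. Of 8 stroma and endothelium markers, 6 were below 1 FPKM throughout, and Pecam1 rose. The erythroid gene Hba-a1 rose and Tfrc fell. Hba-a1 was at 0.598 to 2.39 FPKM with vehicle and at 84.2, 14.7 and 7.07 FPKM with DS-5272, so most of it lay in the first DS-5272 sample. The files hold no counts; the spacing of the lowest values put the depth of the DS-5272 libraries at 0.539 to 0.746 of that of the first vehicle library, and the other two vehicle libraries at 0.808 and 0.885. Because the RNA came from bulk samples, fewer cells of a type and less RNA per cell cannot be told apart.

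DS-5272 was followed by opposite changes of the receptors. Flt3 and Kit fell, and the other 7 receptors rose at an adjusted p below 0.05 by limma on log2(FPKM + 1). Over the whole table, 24.2% of the 11130 genes tested rose and 22.0% fell by the same rule. The vehicle and DS-5272 values did not overlap for any of the 9 receptors, a pattern that 32.1% of all genes tested showed in the upward and 29.7% in the downward direction. The median log2 fold change was -1.96 for the 3 progenitor receptors and 1.36 for the 4 mature myeloid receptors, beside 0.04 for all genes tested.

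**Figure D1:**
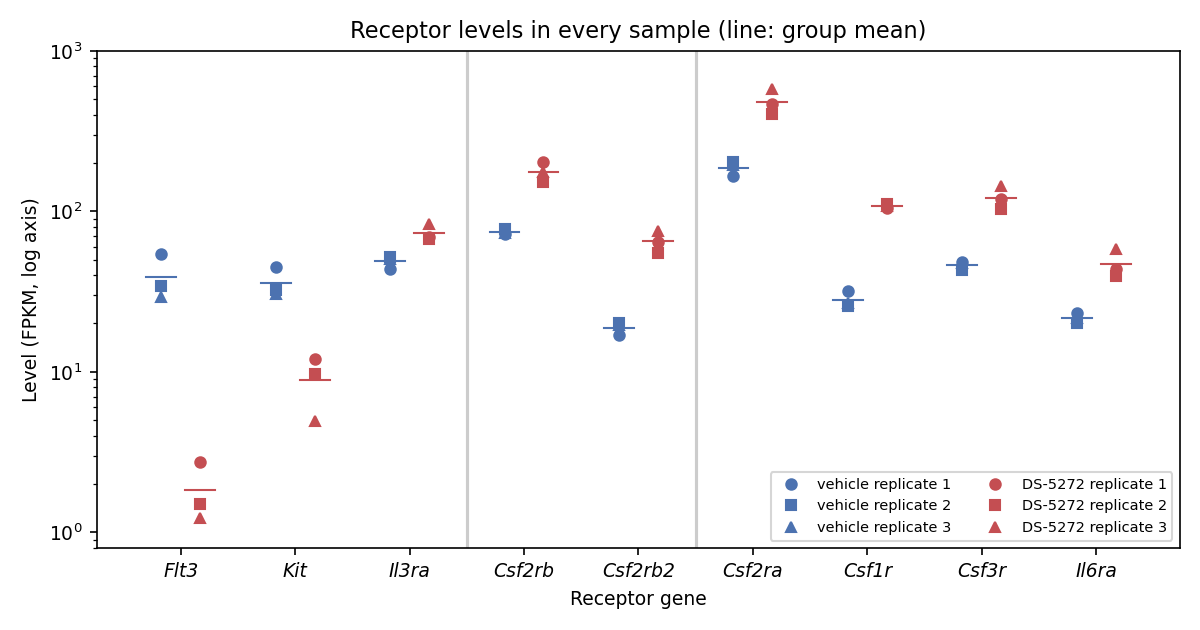
Level of each receptor in every sample, in FPKM on a log axis, with blue points for vehicle, red points for DS-5272, a marker shape for each replicate number and a line at each group mean. Flt3 and Kit lay lower in all 3 DS-5272 samples, and the other 7 receptors lay higher.

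Stretches of the promoters of 2 receptors that fell and 2 that rose are shown for the reader to compare the DNA ahead of their starts. RefSeq promoters (GRCm38.p6, the build of the authors' alignment) matched 7 of the 9 receptors. The stretches end before the first base of any annotated exon of the gene in GENCODE vM21, read 5′ to 3′ on the gene's strand, and capitals mark GAGGAA or its reverse complement, a core bound by the myeloid factor PU.1.
Flt3, chr5:147400490-147400739, minus strand: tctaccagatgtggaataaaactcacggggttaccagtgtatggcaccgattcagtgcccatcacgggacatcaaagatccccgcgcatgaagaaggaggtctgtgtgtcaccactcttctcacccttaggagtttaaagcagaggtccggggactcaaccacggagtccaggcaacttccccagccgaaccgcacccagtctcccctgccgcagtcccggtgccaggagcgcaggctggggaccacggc
Kit, chr5:75574737-75574915, plus strand: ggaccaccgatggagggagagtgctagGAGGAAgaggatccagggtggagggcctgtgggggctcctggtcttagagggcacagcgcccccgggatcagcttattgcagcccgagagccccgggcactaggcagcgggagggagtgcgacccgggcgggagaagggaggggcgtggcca
Csf2rb2, chr15:78305722-78305971, minus strand: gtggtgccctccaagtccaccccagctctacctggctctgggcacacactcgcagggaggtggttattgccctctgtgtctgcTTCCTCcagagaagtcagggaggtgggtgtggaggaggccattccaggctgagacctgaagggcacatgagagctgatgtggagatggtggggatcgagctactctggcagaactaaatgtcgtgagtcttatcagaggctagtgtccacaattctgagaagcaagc
Il6ra, chr3:89913197-89913446, minus strand: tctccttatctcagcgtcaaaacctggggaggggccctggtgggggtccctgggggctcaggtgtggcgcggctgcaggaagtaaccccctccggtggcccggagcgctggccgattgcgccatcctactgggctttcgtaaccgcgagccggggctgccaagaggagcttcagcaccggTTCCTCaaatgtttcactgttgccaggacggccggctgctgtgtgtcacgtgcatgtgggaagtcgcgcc

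Over the 250 bases before the RefSeq start, GAGGAA was found on either strand for Kit, Csf2ra, Csf2rb2, Csf3r and Il6ra, and it was not found for Flt3 or Il3ra. The same core was present in 23.3% of 32851 promoter windows of that length. The C/EBP palindrome TTGCNNAA was found for Il3ra alone among the 7 receptors and in 9.56% of all windows, and the RUNX core TGTGGT was found for none of the 7 and in 14% of all windows. These matches describe letters only, and Kit and Csf2rb2, which moved in opposite directions, both held the PU.1 core. Some windows lay partly within the gene as annotated in GENCODE vM21. Only 30 bases of the Il3ra window and 141 of the Csf3r window lay ahead of it, and those bases held no match. The Csf2ra matches also reached into the annotated gene. The Il6ra stretch overlaps an exon of another annotated gene.

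Flt3 showed the strongest fall among the receptors. The gene (ENSMUSG00000042817, chr5:147330741-147400489, minus strand) encodes the receptor for Flt3 ligand. Its level was 54.1, 34.0 and 29.1 FPKM with vehicle and 2.75, 1.51 and 1.23 FPKM with DS-5272. The lowest vehicle sample was 10.6 times the highest DS-5272 sample, and replicate 1 was the highest of its group on both sides. The mean fell from 39.1 ± 13.3 to 1.83 ± 0.810 FPKM (SD, n = 3 each), which was 21.4-fold lower. The log2 fold change was -3.81 (SE 0.28, limma adjusted p = 0.00069). It is smaller than that ratio implies because 1 was added to each FPKM value. Among the 11130 genes tested, 2 fell by more. From the depth estimate, these levels stood for roughly 8521, 4327 and 4050 fragments with vehicle and 323, 155 and 104 with DS-5272.

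Kit fell as well. Kit (ENSMUSG00000005672, chr5:75574916-75656722, plus strand) encodes the receptor for stem cell factor. Its level was 45.0, 32.3 and 30.5 FPKM with vehicle and 12.1, 9.70 and 4.94 FPKM with DS-5272. Again replicate 1 was the highest and replicate 3 the lowest of each group, without overlap between groups. The mean fell from 36.0 ± 7.91 to 8.90 ± 3.63 FPKM (SD, n = 3 each), 4.04-fold lower, with a log2 fold change of -1.96 (SE 0.30, adjusted p = 0.0046). The log2 fold change was -1.62 without the third DS-5272 sample, and 118 genes of the table fell by more than Kit.

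Il3ra, listed with the progenitor receptors, rose. The gene (ENSMUSG00000068758, chr14:14346275-14356011, plus strand) encodes the alpha chain that binds IL-3. Its level was 44.0, 52.1 and 50.7 FPKM with vehicle and 68.7, 67.1 and 83.2 FPKM with DS-5272. The lowest DS-5272 sample was 1.29 times the highest vehicle sample, the narrowest gap of the 9 receptors. The mean rose 1.49-fold, from 48.9 ± 4.36 to 73.0 ± 8.86 FPKM (SD, n = 3 each), with a log2 fold change of 0.56 (SE 0.12, adjusted p = 0.012). When every sample was scaled to a common total, the median of all genes moved from 0.04 to -0.19 and the log2 fold change of Il3ra to 0.30 (adjusted p = 0.043).

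Both beta chains rose. Csf2rb (ENSMUSG00000071713, chr15:78325752-78353847, plus strand), which transmits the GM-CSF, IL-3 and IL-5 signals, was at 71.9, 77.8 and 73.6 FPKM with vehicle and at 203, 152 and 175 FPKM with DS-5272. The vehicle samples were tightly grouped (coefficient of variation 4.08%) and all lay below the DS-5272 samples. Its mean was 2.37-fold higher (log2 fold change 1.23, SE 0.13, adjusted p = 0.0017). Csf2rb2 (ENSMUSG00000071714, chr15:78282507-78305721, minus strand), the beta chain that serves IL-3 alone, was at 16.9, 20.03 and 19.5 FPKM with vehicle and at 64.8, 55.3 and 74.9 FPKM with DS-5272. Its mean was 3.45-fold higher (log2 fold change 1.73, SE 0.14, adjusted p = 0.00076). The 2 genes are neighbours and near copies: 6.96% of the 100-base windows of the longest Csf2rb transcript also occur in that of Csf2rb2, and 32.6% of its 25-base windows do, so the split of fragments between them is uncertain.

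Csf2ra was the most abundant of the 9 receptors in both groups. The gene (ENSMUSG00000059326, chr19:61223957-61228429, minus strand) encodes the alpha chain of the GM-CSF receptor. Its level was 165, 204 and 193 FPKM with vehicle and 465, 405 and 576 FPKM with DS-5272. The groups were well apart, and the third DS-5272 sample was the highest. The mean rose 2.58-fold, from 187 ± 20.1 to 482 ± 86.6 FPKM (SD, n = 3 each), with a log2 fold change of 1.35 (SE 0.16, adjusted p = 0.0024).

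Csf1r had the largest rise on the log2 scale of the 9 receptors. The gene lies on chromosome 18 (ENSMUSG00000024621) and encodes the receptor for M-CSF and IL-34. Its level was 31.9, 25.7 and 26.7 FPKM with vehicle and 104, 111 and 108 FPKM with DS-5272. The DS-5272 samples were close together, with a coefficient of variation of 3.09%, the lowest of any receptor in either group. The mean rose 3.84-fold, from 28.1 ± 3.34 to 108 ± 3.33 FPKM (SD, n = 3 each), with a log2 fold change of 1.91 (SE 0.11, adjusted p = 0.0006), and 280 genes of the table rose by more. An exon of Hmgxb3 overlaps Csf1r on the opposite strand, and that gene read 8.39 to 11.6 FPKM over the 6 samples. Libraries were strand-specific, but the strand setting used in the quantification is not given in the sources used here.

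Csf1r is also a gene of macrophages, and macrophage markers moved in the same direction. Of the 12 macrophage markers, 11 were tested, 5 rose and none fell, beside 24.2% and 22.0% of all genes tested. Their summed level was 66.9 to 119 FPKM with vehicle and 206 to 478 FPKM with DS-5272. Vcam1 was the largest part of this sum in every vehicle sample, at 36.6, 64.1 and 82.8 FPKM. With DS-5272 Vcam1 was at 143, 74.8 and 85.7 FPKM and did not pass the threshold (limma adjusted p = 0.13). By mass cytometry, the study reported higher VCAM-1 in c-Kit+ cells after DS-5272. The first DS-5272 sample was the highest for C1qb, a complement chain of tissue macrophages, at 58.2 FPKM beside 14.1 and 15.6 FPKM in the other two. The markers were not uniform: Adgre1 was lowest in that sample, at 59.8 FPKM beside 79.1 and 116 FPKM. Siglec1 was at 29.5, 16.5 and 23.2 FPKM with DS-5272 and at 0.677 to 2.43 FPKM with vehicle. Timd4, a marker of resident macrophages, was below the filter with a mean of 0.418 FPKM after DS-5272. The part of macrophage RNA in the level of Csf1r was not tested.

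Csf3r and Il6ra, which serve neutrophil growth and IL-6 responses, rose by smaller factors than Csf1r. Csf3r (ENSMUSG00000028859, chr4:126024550-126044440, plus strand) was at 48.0, 43.3 and 47.7 FPKM with vehicle and at 119, 103 and 143 FPKM with DS-5272. Its mean rose 2.62-fold (log2 fold change 1.36, SE 0.14, adjusted p = 0.0016). Il6ra (ENSMUSG00000027947, chr3:89864059-89913196, minus strand) was at 23.2, 19.996 and 21.8 FPKM with vehicle and at 43.9, 39.4 and 58.1 FPKM with DS-5272. Its mean rose 2.18-fold (log2 fold change 1.07, SE 0.16, adjusted p = 0.0039). For both genes the second DS-5272 sample was the lowest and the third the highest of the group, and no DS-5272 value fell within the vehicle range.

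Neutrophil maturation markers changed in the same direction as Csf3r between the groups. Of 11 such markers, 9 rose and none fell, beside 24.2% and 22.0% of all genes tested. Their summed level was 417, 1857 and 2500 FPKM with vehicle and 4942, 12579 and 21115 FPKM with DS-5272. Within each group the order of the samples differed from that for Csf3r, at 48.0, 43.3 and 47.7 and at 119, 103 and 143 FPKM. Cxcr2, the chemokine receptor of mature neutrophils, rose from 1.08 ± 0.0948 to 17.1 ± 9.14 FPKM (SD, n = 3 each, adjusted p = 0.0021). Camp and Ngp, both secondary granule genes, did not pass the threshold (adjusted p = 0.35 and 0.18), but all 11 markers rose in the fit with a replicate block. Ly6g, 1 of the 9, passed the filter through the DS-5272 group alone. The primary granule genes Mpo and Elane fell, with log2 fold changes of -5.07 and -2.54. The part of these markers in the receptor levels was not tested.

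Markers of other cells that carry Kit or Flt3 were low. Of 6 mast cell and basophil markers with an entry, 4 were below 1 FPKM in every sample, and Fcer1a and Tpsb2 were listed at 0 throughout. Mcpt8, a basophil protease, fell from 8.56 ± 1.14 to 1.63 ± 0.287 FPKM (SD, n = 3 each, adjusted p = 0.00073), whereas Cpa3, the other marker of this list that was tested, had means of 1.72 and 2.55 FPKM and a log2 fold change of 0.34 (adjusted p = 0.41). Of 7 dendritic cell markers, 6 were below 1 FPKM in every sample, and the seventh, Itgax, had means of 0.582 FPKM with vehicle and 6.40 FPKM with DS-5272, passing the filter through the DS-5272 group alone.

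**Figure D2:**
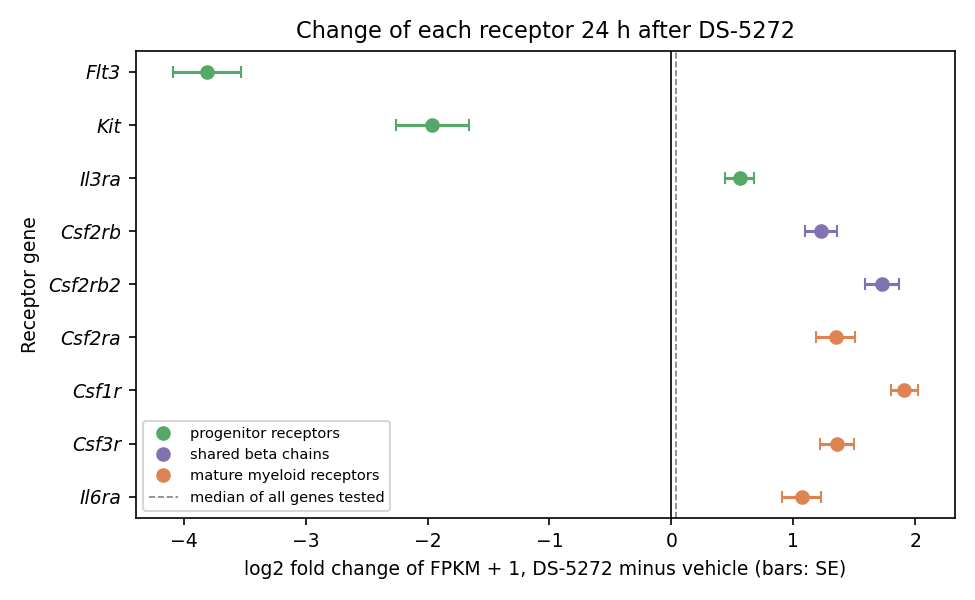
Log2 fold change of each receptor on the log2(FPKM + 1) scale, DS-5272 minus vehicle, with bars for the SE and colours for the receptor groups; the dashed line is the median of all genes tested, 0.04. Flt3 (-3.81) and Kit (-1.96) lay left of 0, and the 7 others lay between 0.56 (Il3ra) and 1.91 (Csf1r).

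The order of the receptors by level per length changed between the groups. With vehicle, Csf2ra and Csf2rb stood above the rest without overlap, and Il3ra, Csf3r, Flt3, Kit and Csf1r followed with ranges that overlapped from each to the next. Il6ra and Csf2rb2 were the lowest, and their ranges overlapped too. With DS-5272, Csf2ra and Csf2rb kept the first places, Csf3r and Csf1r came next with overlapping ranges, and Il3ra, Csf2rb2 and Il6ra formed a further run of overlapping ranges. Kit and Flt3 were the lowest, and Kit was above Flt3 without overlap.

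The summed level of the 9 receptors was 500, 509 and 493 FPKM with vehicle and 1084, 944 and 1225 FPKM with DS-5272. Flt3 and Kit together made up 19.8%, 13.04% and 12.1% of that sum with vehicle and 1.37%, 1.19% and 0.504% with DS-5272. Csf2ra alone held 33.0%, 39.997% and 39.2% with vehicle and 42.9% to 47.0% with DS-5272. Csf1r took 5.05% to 6.38% and then 8.83% to 11.7%.

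**Figure D3:**
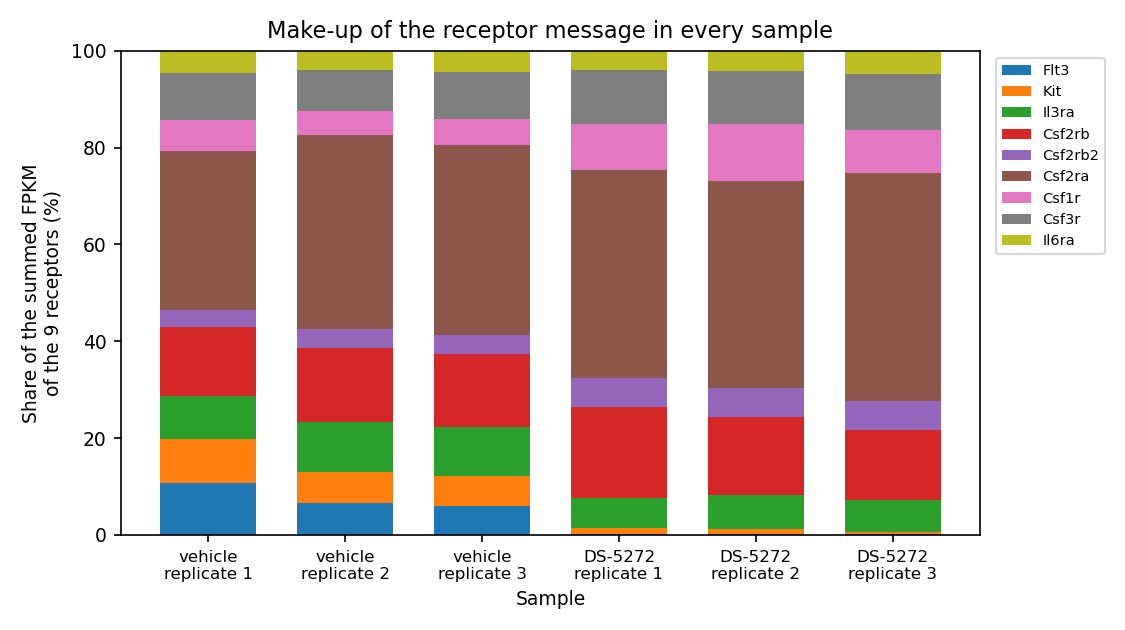
Share of each receptor in the summed FPKM of the 9 receptors, in percent, as stacked bars for each of the 6 samples. The Flt3 and Kit segments at the base took 12.1% to 19.8% in the vehicle samples and 0.504% to 1.37% in the DS-5272 samples.

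Ratios of 2 receptors within a sample do not depend on how samples are scaled, apart from the added pseudocount. Kit and Csf3r were close to even with vehicle, with a mean log2 ratio of -0.38 ± 0.27, and Kit was far below Csf3r with DS-5272, at -3.69 ± 0.79 (SD, n = 3 each). The log2 ratio of Flt3 to Csf1r was 0.74, 0.39 and 0.12 with vehicle and -4.81, -5.48 and -5.61 with DS-5272. For both pairs the groups did not overlap, but both pairs join a gene that fell to a gene that rose.

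The chains of the GM-CSF receptor kept overlapping ratios. The FPKM ratio of Csf2ra to Csf2rb was 2.29, 2.61 and 2.62 with vehicle and 2.29, 2.67 and 3.28 with DS-5272. In contrast, the ratio of Il3ra to Csf2rb2 was 2.59, 2.60 and 2.60 with vehicle and 1.06, 1.21 and 1.11 with DS-5272. With DS-5272 Csf2rb2 was thus close to the level of Il3ra, and the groups did not overlap. The common beta chain Csf2rb, which also pairs with Il3ra, had means of 74.5 and 177 FPKM. Those were above the means of Il3ra (48.9 and 73.0 FPKM) in both groups. The log2 ratio of Csf2rb to Csf2rb2 went from 1.93 ± 0.08 to 1.43 ± 0.21 (SD, n = 3 each) without overlap, for 2 near copies whose split is uncertain.

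The signaling partner of Il6ra was lower and more variable than Il6ra itself. Il6st, which encodes gp130, was at 7.40, 5.11 and 3.56 FPKM with vehicle and 8.26, 2.82 and 1.94 FPKM with DS-5272. The groups overlapped, and Il6st did not pass the threshold (log2 fold change -0.39, SE 0.44, adjusted p = 0.49), although it did without the first DS-5272 sample (adjusted p = 0.046). The FPKM ratio of Il6ra to Il6st was 3.13, 3.92 and 6.12 with vehicle and 5.32, 14.0 and 29.96 with DS-5272, with overlap between groups.

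**Figure D4:**
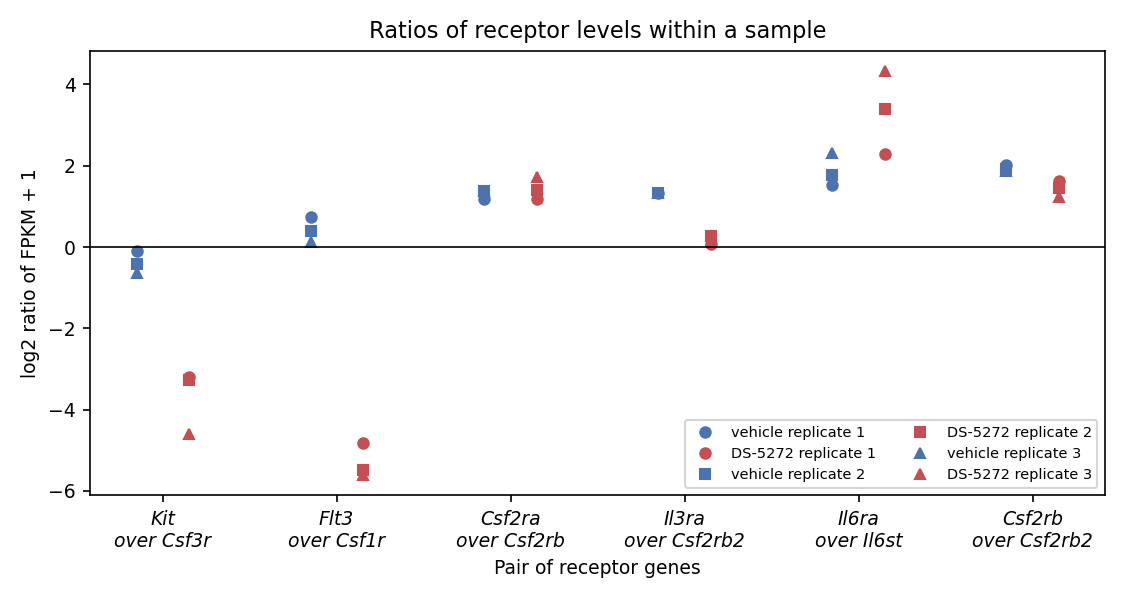
Log2 ratio of FPKM + 1 for 6 pairs of genes in every sample, blue for vehicle and red for DS-5272, with a marker shape for each replicate number. Kit over Csf3r and Flt3 over Csf1r dropped to between -3.20 and -5.61, whereas Csf2ra over Csf2rb and Il6ra over Il6st overlapped between the groups.

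The receptors also varied among themselves within the groups. Deviations from the group mean of log2(FPKM + 1) over the 6 samples correlated at r = 0.99 for Csf2ra and Csf2rb2, 0.98 for Csf3r and Il6ra and 0.82 for Flt3 and Kit, and at -0.93 for Kit and Il3ra. These values are a description over 6 libraries that share depth and scaling between genes. Same-numbered samples gave similar differences for Flt3, at -3.88, -3.80 and -3.75 on the log2 scale, and a wider range for Kit, at -1.82, -1.64 and -2.41.

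Ligands of the receptors were mostly close to 0 in these cells. Il3 was listed at 0 in every sample. Kitl, Il34, Csf2, Csf3, Il5 and Il6 were below 1 FPKM in all 6 samples. The exceptions were Flt3l and Csf1, the ligands of Flt3 and Csf1r. Flt3l rose from 7.12, 8.14 and 8.13 to 12.6, 13.5 and 18.9 FPKM (log2 fold change 0.85, SE 0.16, adjusted p = 0.0078), opposite in direction to its receptor. Csf1 rose from 1.96, 2.85 and 2.34 to 5.99, 7.49 and 11.0 FPKM (log2 fold change 1.41, SE 0.22, adjusted p = 0.0045), the same direction as Csf1r. Neither ligand overlapped between groups.

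Among 10 partner and related receptors, 7 were tested, 3 rose and none fell (5 rose with a replicate block), with a median log2 fold change of 0.37. Il10ra, the IL-10 receptor chain, had the largest rise, from 2.90, 2.15 and 1.86 to 16.3, 21.4 and 25.5 FPKM (log2 fold change 2.73, adjusted p = 0.00068). Il4ra and Ifngr2, chains of the IL-4 and interferon gamma receptors, rose by 1.55 and 1.12 on the log2 scale. Il5ra, which would pair with Csf2rb for IL-5, stayed at or below 0.208 FPKM in every sample.

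Most genes that carry the receptor signal rose. Of the 20 signal transduction genes tested, 14 rose and 1 fell, with a median log2 fold change of 0.53. The Src family kinase Lyn had a log2 fold change of 1.60, and the Janus kinase Tyk2 rose by 0.84. Lyn went from 91.6, 99.8 and 97.3 to 274, 250 and 372 FPKM. Ptpn11, the phosphatase SHP2, fell by 0.28 (adjusted p = 0.048), but its adjusted p was 0.053 with a replicate block and 0.051 to 0.16 when any sample was left out. The STAT genes were not uniform: Stat3 and Stat5b rose by 0.74 and 0.53, while Stat5a had a log2 fold change of -0.28 (adjusted p = 0.055). The adjusted p of Stat3 was 0.055 with a common total, that of Stat5b reached 0.072 and missed the threshold with a common total and without each vehicle sample, and that of Stat5a was 0.015 to 0.032 under the 4 other scalings.

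Negative regulators of these receptors rose too. Of the 12 tested, 10 rose and none fell, with a median log2 fold change of 0.55. Socs3, an inhibitor of gp130 and G-CSF receptor signaling, rose from 4.82, 10.5 and 7.86 to 44.4, 30.8 and 39.9 FPKM (log2 fold change 2.21, adjusted p = 0.0024). The adaptor Dok2 rose by 1.78 and the phosphatase CD45, encoded by Ptprc, by 1.18. Cbl and Cblb, ubiquitin ligases that take tyrosine kinase receptors off the surface, did not pass the threshold (adjusted p = 0.057 and 0.5), and Cbl passed it with a replicate block (adjusted p = 0.042).

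Genes that commonly respond to receptor signaling formed a list of their own. Of 9 tested, 4 rose and none fell (7 rose with a replicate block), with a median log2 fold change of 1.19. Dusp6, a phosphatase induced by ERK signaling, rose from 1.55, 8.28 and 13.2 to 28.5, 94.3 and 140 FPKM (log2 fold change 3.40, SE 0.78, adjusted p = 0.013). Pim1, a kinase induced by STAT signaling, rose by 1.24, and Etv5 read 0.233 to 0.263 FPKM with vehicle and 1.30 to 2.22 FPKM with DS-5272 and passed the filter on low values through the DS-5272 group alone. Pim2 had a log2 fold change of -0.04 (adjusted p = 0.81), and the STAT5 targets Cish and Socs2 were below the filter.

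The proteases that cut receptors off the cell surface, and the factors known to bind receptor genes, formed the last lists. Of 3 shedding genes tested, 2 rose and none fell, with a median log2 fold change of 0.53. Rhbdf2, a partner of the sheddase ADAM17, rose from 9.44 ± 0.390 to 31.1 ± 5.74 FPKM (SD, n = 3 each, log2 fold change 1.61, adjusted p = 0.001). Adam17 rose by 0.53 (adjusted p = 0.035), a call that all 4 other scalings lost (adjusted p 0.051 to 0.36), and Adam10 did not pass the threshold (adjusted p = 0.093, and 0.045 with a replicate block). Of the 11 transcription factors tested, 3 rose and 1 fell (2 fell with a replicate block), beside 24.2% and 22.0% of all genes tested. Their median log2 fold change was 0.18. Irf8, a factor of the monocyte line, rose by 1.24 and Spi1, which encodes PU.1, by 0.75. Cebpb rose by 0.94 (adjusted p = 0.033), but it missed the threshold in 5 of the 6 fits that left out a sample (adjusted p up to 0.097). Cebpa did not pass the threshold (log2 fold change -0.38, adjusted p = 0.077), but it did under the 4 other scalings (adjusted p 0.013 to 0.036). Gfi1, a repressor of the granulocyte line, fell by 0.90 (adjusted p = 0.0033).

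**Figure D5:**
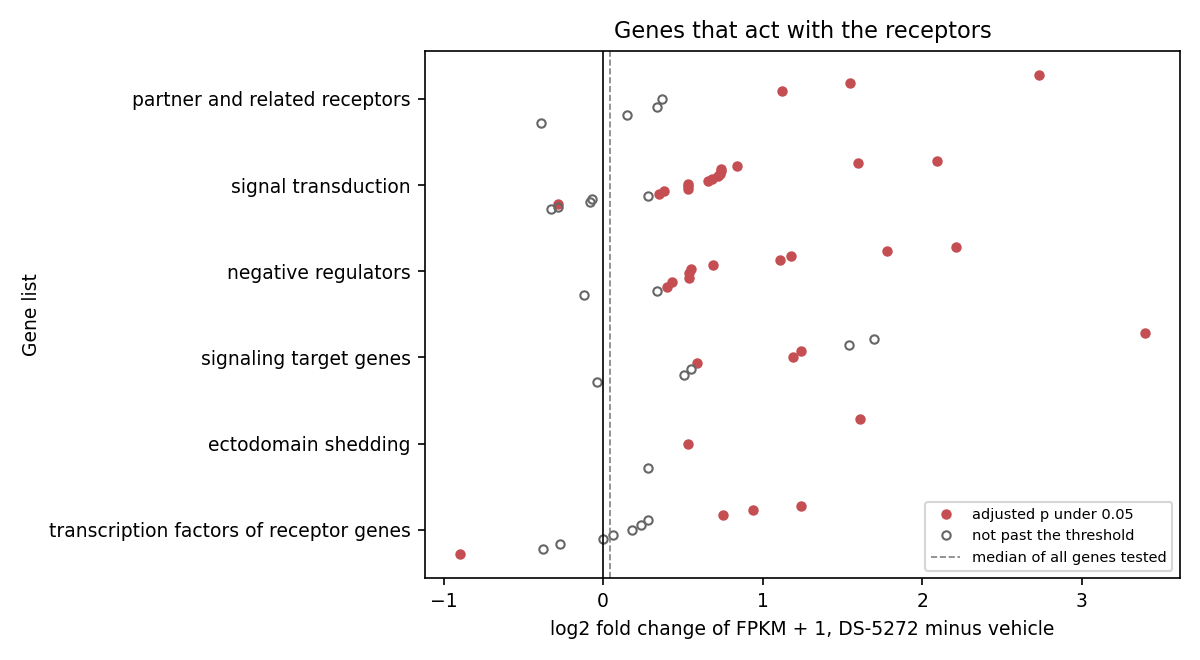
Log2 fold change of every tested gene in 6 lists of genes that act with the receptors, with filled points for an adjusted p under 0.05 and open points for the rest; the dashed line is the median of all genes tested, 0.04. Points past the threshold lay mostly right of 0, up to 3.40 for Dusp6, and Gfi1 and Ptpn11 were the 2 that fell.

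Over the tested genes of the lists other than receptors and cell markers, 38 of 64 rose and 2 fell, beside 24.2% and 22.0% of all genes tested. With a common total for every sample these counts were 26 and 5, and with quantile normalization 32 and 6, while over the whole table a common total gave 1713 that rose and 3555 that fell in place of 2697 and 2451, and a common upper quartile gave 2233 and 3179.

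Many genes followed the patterns of the receptors over the 6 samples. By Pearson's r of log2(FPKM + 1) among 10750 other tested genes, between 596 (for Flt3) and 1261 (for Csf2ra) genes reached at least 0.95, so the closest genes are a description. The closest to Flt3 were Ndufb4, Parp2 and Tspan8 (r of 0.999, 0.998 and 0.998), with Tspan8 at 34.6 to 43.2 FPKM with vehicle and 5.39 to 7.70 FPKM with DS-5272. Those closest to Kit were Mrps22, Qser1 and L3mbtl2, and those closest to Il3ra were C1rl, Ndufa6 and Ccdc88c. Csf2rb was followed most closely by P4ha1, Il4ra and Psap, and Csf2rb2 by S100a4, Hif1a and Dhrs1. For Csf1r these were Arhgef7, Lipa and Bcl11a, for Csf2ra Vps39, Ppp1r3d and Wdr41, for Csf3r Prrg2, Tax1bp3 and Tyk2, and for Il6ra Hecw2, Ids and Nmi. The r of all 27 was at least 0.997.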

How the data were processed

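Gene FPKM values of the 6 samples were deposited by the authors in 1 table. Per the labels and the study's methods, strand-specific libraries were read as pairs of 100 nucleotides, trimmed with cutadapt 1.8.1, aligned to GRCm38 with TopHat2 2.1.1 and quantified with Cufflinks 2.2.1. Rows that shared a symbol were summed here. The 11130 genes that averaged 1 FPKM or more were tested with limma 3.58.1 (R 4.3.3; lmFit and eBayes with a variance trend) on log2(FPKM + 1), vehicle against DS-5272, two-sided, with Benjamini-Hochberg adjustment over all of them and a threshold of 0.05. With 3 samples a group an exact permutation test cannot give a p below 0.1, so none was used. Deviations from the group mean across genes correlated at r = 0.66, 0.21 and 0.43 for samples with the same number. Samples with different numbers gave r from -0.58 to 0.34. The second vehicle sample correlated more with the third DS-5272 sample (0.34) than with the second (0.21). The labels do not say what the numbers mean. Pairing by number was thus an assumption taken from these data, and a fit with a replicate block was an alternative. The other alternatives were 4 scalings, another pseudocount, filters, no variance trend, the highest row per symbol and leaving out each sample. Depth is an estimate from the spacing of low values. Members and lists were chosen with earlier results of these data known. Named genes were all receptors, their ligands, Il6st and Il5ra, per list the 3 largest rises and falls past the threshold, and per receptor the 3 most alike genes. Some genes that this rule selects are not reported here. Other named genes were chosen after their values were seen. Of 165 list genes, 155 matched by symbol, 3 by an older symbol and 4 only within entries that join several genes, which were left out, as were 3 with no entry.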

Additional observations from a re-analysis of the deposited data

How the results depend on the processing

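All 9 receptors kept their direction and an adjusted p below 0.05 under each of the 16 alternative fits run. The log2 fold change ran from -4.37 to -3.56 for Flt3, from -2.20 to -1.62 for Kit and from 0.30 to 0.62 for Il3ra, and the highest adjusted p was 0.043, for Il3ra. The fit with a replicate block changed no receptor's call: Flt3 had an adjusted p of 0.00015 and Il3ra of 0.0074 in it. Leaving out 1 sample gave medians of -2.19 to -1.62 for the progenitor receptors. The median of the mature myeloid receptors was 1.22 with a common upper quartile, 1.09 with a common total and 1.06 with quantile normalization. Without a pseudocount the log2 difference of Flt3 over Csf1r was -6.40. Over the whole table, 1713 genes rose with a common total, leaving out 1 sample gave 1623 to 2934 that rose and 1389 to 2432 that fell (the fewest without the second vehicle sample, and 1492 fell without the third), and a log2 fold change of at least 1 left 978 and 621. In the lists other than receptors and cell markers, that requirement left 15 and 0. The 2 genes of those lists that fell became 5 with a common upper quartile, a median ratio or a common total. They became 6 with quantile normalization, 1 without a variance trend, and 1 to 3 when a sample was left out. With a pseudocount of 0.1 the log2 fold change of Flt3, which rests on roughly 104 to 323 fragments after DS-5272, was -4.37.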
